A study of Gallus gallus with 16 samples.

Results

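The comparison was tributyltin against sesame oil in the gonads of male chicken (Gallus gallus) embryos, measured by SuperSAGE, a method that sequences 1 short tag near the 3' end of each transcript. It was defined by the labels: 4 of the 16 libraries in the series were male and carried sesame oil or tributyltin, and they appeared as 2 of the 8 value columns, because right and left gonads were joined in 1 column. All males were taken at embryonic day 19, just before hatching, and each library held RNA pooled from 10 individuals. The male groups at the centre were untreated embryos, embryos labelled sesame oil, and embryos labelled tributyltin at 10 pg of tin per g of body weight. The labels name neither the vehicle of tributyltin nor the route or day of dosing, so the oil column is read here as the oil control only in the sense of its label. Untreated males carried neither substance, and their level is given beside the male values of named genes. Female columns of the same labels and both columns labelled methyltestosterone, an androgen given at 30 pg per g of body weight, are shown beside some results. The genes were the 14074 Ensembl genes of the deposited table. Of these, 9657 had a tag in the oil or the tributyltin column, and 3802 had at least 20 tags in the higher of both columns and are called measured below. The remaining 5855 genes with a tag stayed below that minimum.

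Tributyltin is an organotin once used in antifouling paint, and it is known for causing male organs to grow in female sea snails. It binds the nuclear receptors PPAR gamma and RXR, which pair on DNA and switch on genes of fatty acid oxidation, lipid storage and fat cell formation. The embryonic testis at this age holds Sertoli cells, which make anti-Mullerian hormone (AMH), steroid-making Leydig cells, germ cells in cords, and a mesenchyme rich in vessels and matrix.

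The oil column held 492619 tags and the tributyltin column 508095, so that 1 tag was 2.03 and 1.97 RPM, the deposited unit that scales tags to a common column total. The untreated column held 1953798 tags, and 1 tag was 0.512 RPM. Some genes differed widely between it and both other columns, such as the ribosomal protein gene RPL36. It was at 201 RPM in untreated males, 10879 after oil and 12722 after tributyltin. Which of the 3 columns stood apart for a gene thus describes single columns and was not tested. With 1 column a side there was no spread between samples and no test. Each value therefore carries an exact Poisson 95% interval and each ratio an exact conditional 95% interval, and both cover counting error only. Tags carry no molecular identifiers, so these intervals are minimal, and animal-to-animal spread is not in them. For ratios a column without tags was taken as 3 tags, a floor of 6.09 RPM in oil and 5.90 RPM in tributyltin. The upper counting bound of 0 tags was higher, at 7.49 RPM in oil and 7.26 RPM in tributyltin. Genes of the female-specific W chromosome summed to 4.06 RPM in oil, 0 in tributyltin and 36.9 RPM in untreated males, against 178 to 324 RPM in the female columns. Anti-Mullerian hormone, AMH, had 8167 RPM after oil and 6912 after tributyltin here, whereas the female columns of the same labels had 1242 and 977 RPM. In whole gonads, fewer cells of a type and less RNA per cell cannot be told apart, and this holds for every value below.

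Most genes had similar levels in both columns. The median log2 ratio of tributyltin over oil was 0.11 across the 3802 measured genes, and the interquartile range ran from -0.35 to 0.54. At least 2-fold higher after tributyltin were 319 genes (8.39% of the measured genes), and at least 2-fold lower were 249 (6.55%). The whole counting interval lay beyond 2-fold for 38 higher genes (0.999%) and 36 lower genes (0.947%), and these are called clearly higher or lower here, in the sense of counting error alone. The share past 2-fold was larger among rarely tagged genes. Among genes whose higher column held 20 to 49 tags, 11.2% were higher and 9.22% lower. Among the 130 genes with 500 tags or more the shares were 3.08% and 3.08%, that is 4 genes each way: NFIB, C1H21ORF91, TMED7 and EIF3M were higher, and MT-CYB, MT-ND1, MT-ND3 and RPL15 lower. The split between higher and lower depended on the scaling. Median-of-ratios scaling, which lowers every log2 ratio by 0.08, gave 264 higher and 312 lower genes, so that 45.8% of the genes past 2-fold were higher in place of 56.2%.

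**Figure D1:**
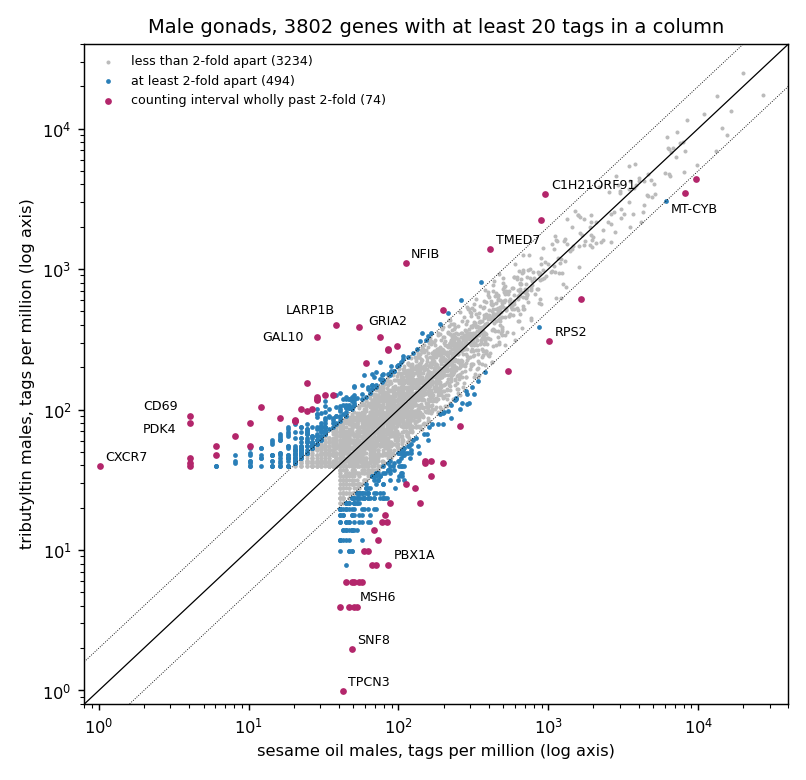
Level in RPM of each of the 3802 measured genes in sesame oil males (x axis, log) and tributyltin males (y axis, log), with the line of equal levels and dotted lines at 2-fold; a column without tags is drawn at 0.5 tags. The 74 genes whose counting interval lies wholly past 2-fold are marked, and NFIB, C1H21ORF91 and TMED7 stand above the line at high tag numbers.

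The plot of both columns against each other shows the points fanning out towards low levels, where few tags set the position of a gene, and a narrow band at high levels. In the band, NFIB stands farthest from the line of equal levels.

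By the bound of the interval nearest 1, the gene with the largest ratio was NFIB (ENSGALG00000005441, Z chromosome), a transcription factor of the nuclear factor I family that acts in the differentiation of several organs. NFIB was at 112 RPM (84.1 to 145) in oil males and 1102 RPM (1013 to 1197) in tributyltin males, 9.87-fold higher (7.47 to 13.3). Untreated males had 96.7 RPM, inside the interval of the oil column, so the tributyltin column was the one that stood apart among these 3. In females the oil and the tributyltin column were both high, at 934 and 1476 RPM, against 138 RPM in untreated females. Next came GAL10 (ENSGALG00000016667, chromosome 3), whose symbol RefSeq lists as a synonym of the beta-defensins AvBD10 and AvBD12, antimicrobial peptides of birds. GAL10 was at 28.4 RPM (15.5 to 47.7) after oil and 329 RPM (281 to 382) after tributyltin, 11.6-fold higher (6.70 to 21.6). In the list of antimicrobial peptides 4 genes were measured, GAL10 past 2-fold higher and none lower, beside 8.39% and 6.55% over all measured genes. The other 3 had a ratio below 1. GAL1 among them was at 240, 120 and 163 RPM in oil, tributyltin and untreated males (ratio 0.501, 0.362 to 0.688). For GAL10 untreated males had 314 RPM, inside the interval of the tributyltin column, and oil was the column that stood apart.

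The same split ran through the other genes at the top of the list. LARP1B (ENSGALG00000010207, chromosome 4), a La-related RNA-binding protein, was at 38.6 RPM (23.2 to 60.2) after oil and 402 RPM (348 to 461) after tributyltin, 10.4-fold higher (6.50 to 17.6), with 40.4 RPM in untreated males. For LARP1B, as for NFIB, oil and untreated males lay together. For 2 other genes, CD69 and PDK4, the untreated and tributyltin columns lay together and the oil column held only 2 tags of each. CD69, an activation antigen of lymphocytes, was at 4.06 RPM (0.492 to 14.7) after oil, 90.5 RPM (66.3 to 121) after tributyltin and 124 RPM in untreated males. Its ratio was 22.3 with a wide interval of 5.83 to 190.

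PDK4 (ENSGALG00000009700, chromosome 2), the kinase that shuts off pyruvate dehydrogenase when cells burn fat and a well-known PPAR target, was at 4.06 RPM (0.492 to 14.7) after oil and 80.7 RPM (57.9 to 109) after tributyltin. It was 19.9-fold higher (5.16 to 170), and untreated males had 86.0 RPM, so that PDK4 after tributyltin was at the untreated level. CXCR7 (ENSGALG00000021031, chromosome 7), a scavenging receptor of the chemokine CXCL12, had no tag after oil and 20 tags after tributyltin, 39.4 RPM (24.04 to 60.8). It was 6.46-fold higher against the floor of 3 tags, and the lower counting bound of the ratio was 4.79. Untreated males had 1 tag of CXCR7, 0.512 RPM, so it was the tributyltin column that stood apart.

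Several strongly tagged genes were higher after tributyltin than in both other columns. C1H21ORF91 (ENSGALG00000028290, chromosome 1) was at 956 RPM (872 to 1046) after oil, 3397 RPM (3239 to 3561) after tributyltin and 400 RPM in untreated males, 3.55-fold higher than oil (3.21 to 3.94). TMED7 (ENSGALG00000028484, Z chromosome), a carrier protein between endoplasmic reticulum and Golgi, was at 410 RPM after oil, 1378 RPM after tributyltin and 164 RPM in untreated males, 3.36-fold higher (2.87 to 3.95). GRIA2 (ENSGALG00000009405, chromosome 4), a subunit of AMPA glutamate receptors, was at 54.8, 390 and 14.3 RPM in the same order, 7.11-fold higher (4.74 to 11.1). In all 3 genes the untreated level was the lowest and the intervals of oil and tributyltin did not meet.

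Among the remaining genes of the 15 with the largest conservative ratio, KDM4A, a histone demethylase, was at 24.4 RPM after oil, 154 after tributyltin and 59.4 in untreated males, 6.30-fold higher (3.41 to 12.7). MARK1, a kinase of microtubule-associated proteins, was at 75.1, 331 and 99.8 RPM in that order, 4.40-fold higher (3.07 to 6.47). MAPK6, an atypical MAP kinase, was at 8.12, 64.9 and 8.70 RPM. FYB, an adaptor of T cell receptor signalling, was at 6.09, 55.1 and 10.7 RPM. For these genes the untreated level was nearer to oil than to tributyltin in RPM. FAM54B, a relative of the mitochondrial fission regulators, was 8.56-fold higher (3.68 to 24.4), from 12.2 to 104 RPM with 28.7 RPM in untreated males, and ASB6, a SOCS box protein of ubiquitin ligases, 7.95-fold higher (3.14 to 25.8), from 10.2 to 80.7 RPM with 35.3 RPM in untreated males.

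**Figure D2:**
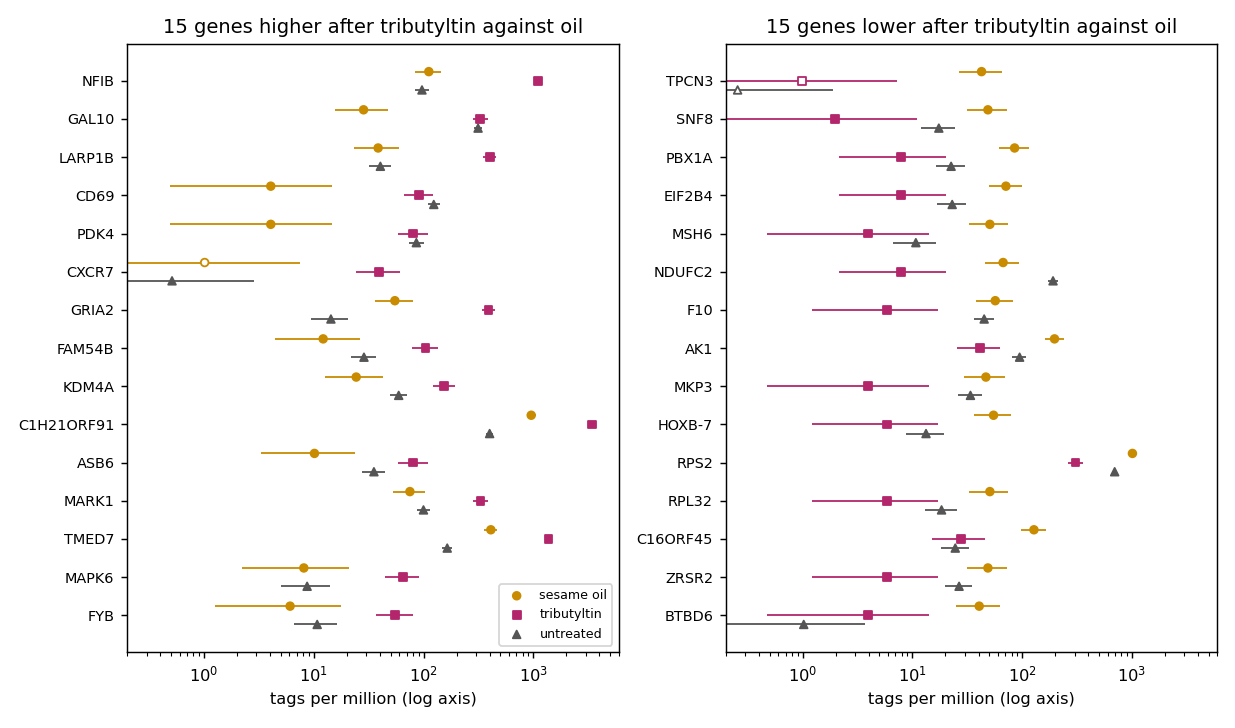
Level in RPM (log axis) in sesame oil, tributyltin and untreated males for the 15 genes with the largest conservative ratio (left) and the 15 with a symbol and the smallest (right); lines are exact Poisson 95% intervals, cut at the left edge, and an open symbol at 0.5 tags marks a column without tags. For NFIB, LARP1B and MAPK6 the untreated symbol lies near the oil symbol, and for GAL10, CD69 and PDK4 near the tributyltin symbol.

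The plot of the 30 genes shows that most of the lower genes rest on few tags, with wide tributyltin intervals. RPS2 had the most tags among them in both columns.

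Of the genes lower after tributyltin, TPCN3 (ENSGALG00000008198, chromosome 3), an endolysosomal cation channel, had 21 tags after oil, 42.6 RPM (26.4 to 65.2), and none after tributyltin. It was 7.22-fold lower against the floor of 3 tags. Untreated males had no TPCN3 tag either, so only the oil column held it among these 3. SNF8 (ENSGALG00000001309, chromosome 27), a subunit of an ESCRT membrane sorting complex, was at 48.7 RPM (31.2 to 72.5) after oil and at 1.97 RPM, 1 tag, after tributyltin. The ratio gave a 24.8-fold lower level with an interval of 4.04 to 1018, and untreated males had 17.4 RPM, between both columns.

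PBX1A (ENSGALG00000003429, chromosome 8), a homeodomain partner of HOX proteins that mouse gonads and adrenals need to form, was at 85.3 RPM (61.4 to 115) after oil and 7.87 RPM (2.15 to 20.2) after tributyltin. It was 10.8-fold lower (3.93 to 41.6), and untreated males had 22.5 RPM, again between both columns. HOXB-7, a HOX gene of the trunk, went from 54.8 to 5.90 RPM, 9.28-fold lower (2.86 to 47.8), with 13.3 RPM in untreated males, inside the tributyltin interval. EIF2B4, a subunit of the exchange factor that recharges translation initiation factor eIF2, was at 71.0 RPM after oil, 7.87 after tributyltin and 23.0 in untreated males, 9.02-fold lower (3.23 to 35.0).

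MSH6, a protein that recognises base mismatches, was at 50.7 RPM (32.8 to 74.9) after oil, 3.94 RPM (0.477 to 14.2) after tributyltin and 10.7 RPM in untreated males, 12.9-fold lower (3.21 to 112). Its untreated level lay inside the tributyltin interval. For 3 further genes the untreated level lay with oil or above it. NDUFC2, a subunit of respiratory complex I, was at 67.0 RPM after oil, 7.87 after tributyltin and 191 in untreated males, 8.51-fold lower than oil (3.03 to 33.1). F10, coagulation factor X, was at 56.8 RPM after oil, 5.90 after tributyltin and 45.0 in untreated males, 9.63-fold lower (2.97 to 49.5). MKP3, a phosphatase that inactivates the ERK kinases, was at 46.7, 3.94 and 33.8 RPM, 11.9-fold lower (2.93 to 104). For F10 and MKP3 tributyltin was the column that stood apart, while for NDUFC2 all 3 columns lay apart, with untreated males highest.

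AK1, adenylate kinase, was the lower gene with the next most tags, at 197 RPM (160 to 240) after oil, 41.3 RPM (25.6 to 63.2) after tributyltin and 94.7 RPM in untreated males, 4.76-fold lower (2.95 to 8.04). C16ORF45 was at 128, 27.6 and 24.6 RPM, so that oil was the high column. BTBD6, an adaptor of cullin ubiquitin ligases, was at 40.6, 3.94 and 1.02 RPM, with oil again the high column. ZRSR2, a factor of the minor spliceosome, was at 48.7 RPM (31.2 to 72.5) after oil, 5.90 RPM (1.22 to 17.3) after tributyltin and 26.6 RPM in untreated males, 8.25-fold lower (2.51 to 42.8). Strongly lower were also genes without a symbol in the table. ENSGALG00000026679, on a scaffold with no chromosome, was at 140 RPM after oil, 21.6 after tributyltin and 106 in untreated males, and ENSGALG00000005727 on chromosome 4 at 52.8, 3.94 and 43.5 RPM.

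Some clearly changed genes outside the naming rule belong to fatty acid handling, and they were picked after their values were seen. PECR, a peroxisomal reductase of fatty acid chain elongation, was at 97.4 RPM after oil, 285 after tributyltin and 94.7 in untreated males, a ratio of 2.93. SLC27A6, a fatty acid transport protein on the Z chromosome, was at 85.3, 264 and 182 RPM, a ratio of 3.09. In the other direction ECHS1, the enoyl-CoA hydratase of mitochondrial fatty acid oxidation, was at 256, 76.8 and 252 RPM, a ratio of 0.300. PEX6, a factor of peroxisome assembly, was at 150, 41.3 and 102 RPM, a ratio of 0.275. No single direction joined these genes.

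PPAR gamma and RXR are the known receptors of tributyltin, and their own genes were barely tagged. PPARG had 3 tags in each column, 6.09 RPM (1.26 to 17.8) after oil and 5.90 RPM (1.22 to 17.3) after tributyltin, with 1.02 RPM in untreated males. RXRA had 1 tag in each, 2.03 and 1.97 RPM, and 22.5 RPM in untreated males. RXRG had none in either and 1.02 RPM in untreated males. PPARD, a related receptor of fatty acids, had 1 tag after oil, 2.03 RPM (0.0514 to 11.3), and 12 tags after tributyltin, 23.6 RPM (12.2 to 41.3), with 31.2 RPM in untreated males. With 12 tags it stayed below the minimum of 20. Among the receptors' partners, 3 genes were measured and none was past 2-fold, beside 14.9% in either direction over all measured genes. PPARGC1A, the coactivator of mitochondrial genes, was at 56.8 and 51.2 RPM after oil and tributyltin and at 52.2 in untreated males.

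Of 27 genes in the list of PPAR and RXR lipid targets, 21 had a tag and 14 were measured. PDK4 was past 2-fold higher and HADHB past 2-fold lower, 1 each, beside 8.39% and 6.55% over all measured genes. The median log2 ratio of the list was 0.21 against 0.11 over all measured genes, and the summed level of the list was 1488 RPM after oil, 1758 after tributyltin and 1759 in untreated males. HADHB, a subunit of the mitochondrial trifunctional protein of fatty acid oxidation, was at 101 RPM (75.3 to 134) after oil, 33.5 RPM (19.5 to 53.6) after tributyltin and 110 in untreated males, 3.03-fold lower (1.72 to 5.61). Its partner subunit HADHA was at 67.0, 116 and 9.21 RPM, a ratio of 1.73 in the opposite direction.

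Several other targets were moderately higher without reaching 2-fold. FABP5, a fatty acid carrier, was at 75.1 RPM after oil, 134 after tributyltin and 82.9 in untreated males (ratio 1.78, 1.18 to 2.74). ADIPOQ, the fat cell hormone adiponectin, was at 30.4, 57.1 and 33.8 RPM in the same order. Its ratio of 1.87 had an interval that includes 1 (0.973 to 3.76). For both genes untreated males lay with oil. Targets known from fat cells gave other values. FABP4, a fat cell carrier, had no tag in the oil, tributyltin or untreated column. PLIN2, which coats lipid droplets, was at 132 RPM after oil and 82.7 after tributyltin, a ratio of 0.626 (0.415 to 0.938), with 82.4 RPM in untreated males. ANGPTL4, an inhibitor of lipoprotein lipase, was at 50.7, 35.4 and 102 RPM. CPT1A, the gate of mitochondrial fatty acid import, was at 124 RPM (94.7 to 159) and 130 RPM (100 to 165), a ratio of 1.05 (0.729 to 1.51), which differed by less than the counting error, and at 199.6 RPM in untreated males.

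**Figure D3:**
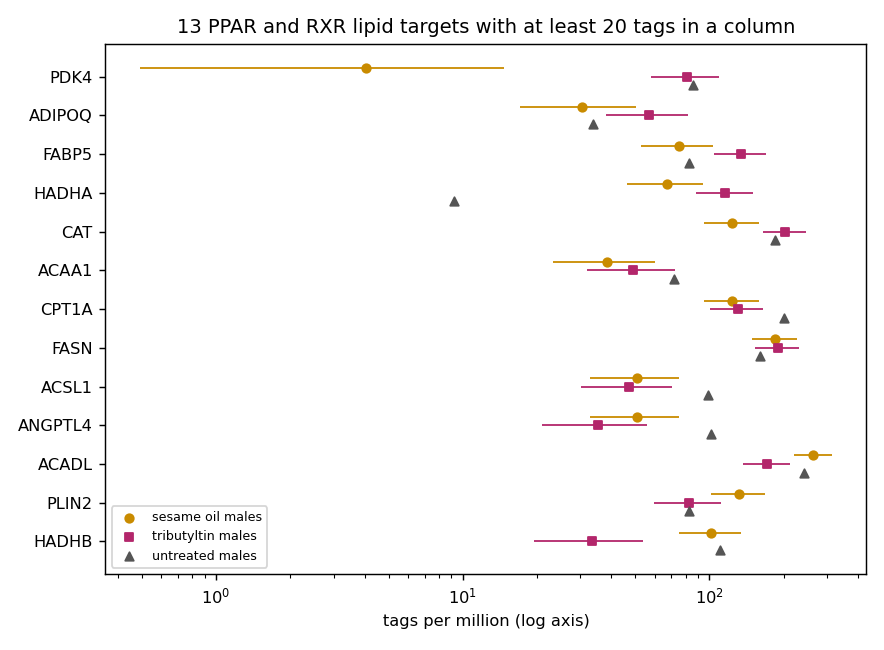
Level in RPM (log axis) of 13 of the 14 measured genes of the PPAR and RXR lipid target list in sesame oil, tributyltin and untreated males, ordered by the ratio of tributyltin over oil; lines are exact Poisson 95% intervals of the oil and tributyltin columns. PDK4 at the top is the gene whose intervals lie far apart, HADHB at the bottom is the one past 2-fold lower, and untreated PDK4 lies at the tributyltin level.

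Of the 14 measured lipid targets 9 had a ratio above 1 and 5 below 1, beside 57.0% above 1 over all measured genes. CPT1A and FASN, another member of the list, were barely above 1, at log2 ratios of 0.069 and 0.033. The other scalings lower every log2 ratio by 0.08, and under them both genes had a ratio below 1. The oil and tributyltin intervals do not meet for PDK4, FABP5 and CAT on the higher side or for ACADL and HADHB on the lower side, and they overlap for the other 8 genes plotted. CAT, catalase, was at 124 RPM after oil, 203 after tributyltin and 184 in untreated males. ACADL, a dehydrogenase of mitochondrial fatty acid oxidation, was at 264, 171 and 242 RPM.

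The measured steroid-making genes differed by less than 2-fold between both columns. CYP17A1 (ENSGALG00000008121, chromosome 6), which makes androgen precursors, was at 7917 RPM (7670 to 8169) after oil and 8063 RPM (7818 to 8314) after tributyltin, a ratio of 1.02 (0.975 to 1.06), with 10071 RPM in untreated males. HSD3B2, which converts pregnenolone to progesterone, was at 1594 and 1466 RPM (ratio 0.920, 0.831 to 1.02), with 877 RPM in untreated males. STAR, the carrier that brings cholesterol into mitochondria, stood at 44.7 and 45.3 RPM (ratio 1.01, 0.540 to 1.91), while untreated males had 1.02 RPM. Both treated columns thus stood above untreated for STAR, and they differed from each other by less than the counting error. Of 6 measured genes of steroid synthesis none was past 2-fold, nor were any of 9 of cholesterol synthesis and uptake. The share over all measured genes was 14.9% in either direction. Of the 9 cholesterol genes 5 had a ratio above 1 and 4 below 1. SC4MOL was at 93.4, 185 and 168 RPM in oil, tributyltin and untreated males (ratio 1.98, 1.38 to 2.88). SREBF2 was at 266, 185 and 265 RPM in that order (ratio 0.696, 0.528 to 0.914). LHCGR, the receptor of luteinising hormone, stayed below the minimum with 5 and 17 tags, 10.2 and 33.5 RPM (ratio 3.30, 1.17 to 11.4), with 2.56 RPM in untreated males. CYP11A1, which starts steroid synthesis, had 1 and 5 tags, 2.03 and 9.84 RPM, with 0.512 RPM in untreated males. FDX1, the electron donor of CYP11A1, also stayed below the minimum and is named after its values were seen. It had 30.4 RPM (17.0 to 50.2) after oil, 1.97 RPM (0.0498 to 10.97) after tributyltin, which is 1 tag, and 7.68 RPM in untreated males. That is 15.5-fold lower, and the ratio of 0.0646 had an interval of 0.00154 to 0.420. NR5A1, the transcription factor that switches these genes on, was at 292 and 339 RPM (ratio 1.16, 0.923 to 1.46), with 407 RPM in untreated males.

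Of the Sertoli cell list 7 genes were measured and none was past 2-fold, beside 14.9% in either direction over all measured genes. ETV5, a transcription factor of Sertoli and germ cells named after its values were seen, came nearest, at 81.2 RPM (58.0 to 111) after oil, 41.3 RPM (25.6 to 63.2) after tributyltin and 162 in untreated males. Its log2 ratio was -0.97, and -1.05 to -1.06 under the 3 other scalings, where it was past 2-fold lower. AMH, which makes the Mullerian ducts regress, was at 8167 RPM (7916 to 8423) after oil and 6912 RPM (6685 to 7145) after tributyltin, a ratio of 0.846 (0.809 to 0.886), and at 10186 RPM in untreated males. The counting intervals of the 3 columns did not meet, and oil lay between untreated and tributyltin. SOX9, the Sertoli cell transcription factor upstream of AMH in mammals, was at 81.2 RPM (58.0 to 111) after oil, 47.2 RPM (30.3 to 70.3) after tributyltin and 273 RPM in untreated males, a ratio of 0.582 (0.335 to 0.989). HEMGN, a Z-linked factor that acts upstream of SOX9 in chicken, was at 36.5 and 39.4 RPM, with 23.5 in untreated males. DMRT1, the Z-linked testis determinant of birds, had 2 and 8 tags, 4.06 and 15.7 RPM, with 66.0 RPM in untreated males.

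Of the genes of the female pathway most had few tags or none. CYP19A1, the aromatase, and FOXL2, the granulosa cell factor, had no tag after oil or tributyltin, and were at 3.58 and 25.1 RPM in untreated males. The upper counting bounds of 0 tags were 7.49 RPM in oil and 7.26 RPM in tributyltin. RSPO1, an ovarian activator of WNT signalling, had 4.06 and 5.90 RPM, with 1.02 in untreated males. ESR1, an oestrogen receptor, had 1 tag after oil and 0 after tributyltin, with 0.512 RPM in untreated males. FST, follistatin, an activin inhibitor named after its values were seen, had 2.03 RPM (0.0514 to 11.3) after oil, 23.6 RPM (12.2 to 41.3) after tributyltin and 27.1 RPM in untreated males, a ratio of 11.6 (1.72 to 497) that rests on 1 tag after oil. Of the ovary and granulosa list 1 member was measured, FSHR, the receptor of follicle-stimulating hormone, at 118 RPM after oil, 169 after tributyltin and 124.9 in untreated males. FSHR also counted among the measured genes of the Sertoli cell list, so it is not particular to the female pathway here.

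Germ cell genes had 6 measured members, of which 2 were past 2-fold higher and none lower, beside 8.39% higher and 6.55% lower over all measured genes. The list median was 0.52 on the log2 scale, against 0.11 over all measured genes. KIT, a receptor of migrating germ cells and of other cell types, was at 14.2 RPM (5.71 to 29.3) after oil, 57.1 RPM (38.2 to 82.0) after tributyltin and 36.9 RPM in untreated males, 4.02-fold higher (1.72 to 10.9). TDRD3, a Tudor domain protein that many tissues also express, was at 10.2, 39.4 and 6.14 RPM, 3.88-fold higher (1.41 to 13.2). The other 4 measured members were not past 2-fold. DAZL, a germ cell RNA-binding protein, was at 77.1 and 72.8 RPM (ratio 0.944, 0.584 to 1.53), with 30.7 in untreated males. SYCP3, of the meiotic chromosome axis, was at 56.8, 63.0 and 56.8 RPM in oil, tributyltin and untreated males. In that order HORMAD1 was at 42.6, 78.7 and 87.5 RPM (ratio 1.85, 1.06 to 3.30). RNF17 was at 124, 84.6 and 127 RPM (ratio 0.683, 0.452 to 1.03). The list summed to 481 RPM (422 to 546) after oil and 547 RPM (485 to 615) after tributyltin, and the intervals overlapped.

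Transcripts of the mitochondrial genome were the group with the lowest median. Of 16 measured genes 15 had a ratio below 1, the median log2 ratio was -0.80, and 4 were past 2-fold lower, beside 6.55% of all measured genes. Under the 3 other scalings 6 were. Together they made up 10.6% of the tags after oil, 6.27% after tributyltin and 10.8% in untreated males, and the ratio of the sums was 0.594 (0.586 to 0.602). MT-CYB, cytochrome b, was at 8177 RPM (7926 to 8433) after oil, 3480 RPM (3319 to 3646) after tributyltin and 14279 RPM in untreated males, 2.35-fold lower than oil (2.22 to 2.49). MT-ND1, a complex I subunit, was at 9685, 4407 and 11132 RPM in the same order, 2.20-fold lower (2.09 to 2.31). For both genes tributyltin was the lowest of the 3 columns. MT-ND3 was 2.01-fold lower (1.89 to 2.14), from 6114 to 3039 RPM, with 5891 RPM in untreated males, and the fourth was ENSGALG00000018387, from 73.1 to 11.8 RPM, with 55.8 in untreated males. MT-CO3, a cytochrome oxidase subunit, was the exception at 3837 and 3950 RPM, a ratio of 1.03, and both columns lay far below the 11499 RPM of untreated males. MT-CO1, another, was at 1742, 1488 and 2439.9 RPM in oil, tributyltin and untreated males, a ratio of 0.854. The place of the untreated column differed between members. The entry with the most tags after oil, labelled gga-mir-3527, was at 27232, 17471 and 11564 RPM in that order. ND4L was at 164, 106 and 60.4 RPM, so untreated males were lowest for both. MT-ND4 was at 9778, 5513 and 6095 RPM, with untreated males near tributyltin.

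**Figure D4:**
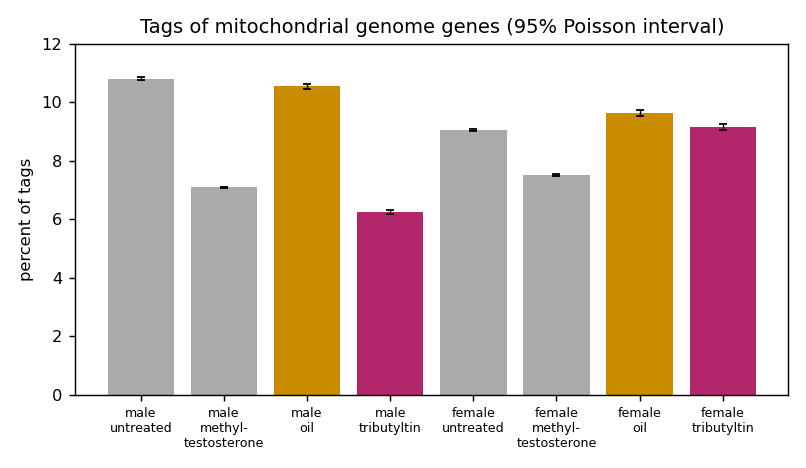
Percent of all tags that belonged to genes of the mitochondrial genome in each of the 8 columns (y axis from 0), with exact Poisson 95% intervals as error bars. Tributyltin males are lowest at 6.27%, methyltestosterone males and females follow at 7.10% and 7.52%, and oil males lie at 10.6%, near untreated males.

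The bar plot of mitochondrial tags sets the male columns beside the others. Females had 9.63% after oil and 9.15% after tributyltin, so their columns differed by far less than the male ones. Methyltestosterone males, at 7.10%, came close to the tributyltin males, so a low share also occurred in a column labelled with another substance. What set the share in either column was not tested. With 1 column a group, the spread of this share between pools of the same treatment is unknown.

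The listed nuclear genes of the respiratory chain lay nearer to even. The list did not hold NDUFC2, the complex I subunit given above among the largest falls. Of 35 measured members none was past 2-fold higher and 2 were lower, near the 6.55% lower over all measured genes, with a median log2 ratio of -0.10. COX8A, of cytochrome oxidase, was at 244 RPM after oil, 118 after tributyltin and 529 in untreated males, 2.06-fold lower (1.501 to 2.86). ATP5G2, of the ATP synthase ring, was at 168, 78.7 and 277 RPM, 2.14-fold lower (1.45 to 3.20). For both genes the order was untreated, oil, tributyltin. Cytosolic ribosomal protein genes summed to 19.6% of the tags after oil and 19.6% after tributyltin, against 15.0% in untreated males. Of 50 measured, 2 were past 2-fold higher and 3 lower, at or below the 8.39% and 6.55% over all measured genes. RPS2 was at 1009 RPM (922 to 1102) after oil, 305 RPM (259 to 357) after tributyltin and 695 RPM in untreated males, 3.31-fold lower (2.76 to 3.99). RPL15 went from 1654 to 614 RPM, with 3131 RPM in untreated males, 2.69-fold lower (2.36 to 3.08), and RPL32 from 50.7 to 5.90 RPM, with 18.4 in untreated males. RPS6 was higher, at 40.6 RPM after oil, 132 after tributyltin and 22.5 in untreated males. Ribosomal protein genes have many near-identical copies, and how the authors assigned tags shared between copies is not given in the sources used here, so single members are uncertain.

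Measured genes of proliferation leaned to the lower side. Of 15 measured members 13 had a ratio below 1, against 43.0% of all measured genes, and the median log2 ratio was -0.44. CENPF counted with 2 entries, at ratios of 1.03 and 0.737. Members below the minimum lay on both sides. Named after its values were seen, TYMS had no tag after oil, 29.5 RPM (16.5 to 48.7) after tributyltin and 2.56 RPM in untreated males. The lower counting bound of its ratio was 3.48. BUB1 was at 28.4, 21.6 and 46.1 RPM in that order (ratio 0.762, 0.313 to 1.81). Past 2-fold, 3 were lower and 1 higher, beside 6.55% and 8.39% of all measured genes. MKI67, a nuclear protein of dividing cells, was at 71.0 RPM (49.5 to 98.8) after oil, 29.5 RPM (16.5 to 48.7) after tributyltin and 64.0 RPM in untreated males, 2.41-fold lower (1.28 to 4.74). TPX2, of the mitotic spindle, was at 201, 96.4 and 72.2 RPM, 2.08-fold lower (1.47 to 2.998), and MCM5, of the replication helicase, at 85.3, 41.3 and 70.6 RPM, 2.06-fold lower (1.19 to 3.67). For MKI67 and MCM5 the untreated level lay inside the oil interval, whereas for TPX2 it lay near tributyltin. CCNE1, the cyclin of S phase entry, was higher, at 20.3 RPM after oil, 53.1 after tributyltin and 26.1 in untreated males. TOP2A, the topoisomerase of dividing cells, had a ratio of 0.526, from 191 to 100.4 RPM, with 36.3 RPM in untreated males, and was past 2-fold lower under the 3 other scalings. STMN1, a regulator of microtubules, at 1086 and 1051 RPM, and H2AFZ, a histone variant, at 249.7 and 248 RPM, were close to even, with 676 and 397 RPM in untreated males.

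In DNA repair, 12 genes were measured, and MSH6 was lower and LIG1 higher past 2-fold, beside 6.55% and 8.39% of all measured genes. LIG1, a DNA ligase of replication, was at 24.4, 55.1 and 44.5 RPM, 2.26-fold higher (1.11 to 4.88).

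Of the matrix genes 32 were measured, with 2 past 2-fold in each direction, near the shares over all measured genes, and a median log2 ratio of 0.01. Under the 3 other scalings 1 was higher and 3 were lower. MGP, which keeps matrix from calcifying, was at 36.5 RPM (21.7 to 57.7) after oil, 128 RPM (98.7 to 163) after tributyltin and 86.0 in untreated males, 3.501-fold higher (2.05 to 6.27). FBLN1, fibulin, was at 93.4, 187 and 86.0 RPM, 2.00-fold higher (1.39 to 2.91), and below 2-fold under the 3 other scalings and with 0.5 tags added. COL18A1, a basement membrane collagen, was at 536 RPM (473 to 605) after oil, 189 RPM (153 to 231) after tributyltin and 508 RPM in untreated males, 2.84-fold lower (2.24 to 3.62). For COL18A1, oil and untreated males lay together. FBN2, a fibrillin, has 2 entries in the table. One went from 79.2 to 25.6 RPM and the other from 77.1 to 78.7 RPM, with 171 and 174 RPM in untreated males, so 1 entry was lower and the other even. The most abundant matrix gene, SPARC, a collagen-binding glycoprotein, was at 6433 and 4609 RPM, a ratio of 0.717, with 4832 RPM in untreated males.

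In retinoid metabolism ALDH1A2, which makes retinoic acid, was at 75.1 RPM (52.9 to 104) after oil, 216 RPM (178 to 261) after tributyltin and 197 RPM in untreated males, 2.88-fold higher (1.97 to 4.30). Oil was the low column, and the other 4 measured genes of the list were not past 2-fold. Over all measured genes 8.39% were past 2-fold higher and 6.55% lower. Among nuclear receptors NR2F2, a mesenchymal orphan receptor, was at 58.9 RPM after oil, 23.6 after tributyltin and 4.61 in untreated males, 2.49-fold lower (1.23 to 5.36). Among early gonad factors TCF21, a mesenchymal factor, was at 101, 43.3 and 147 RPM, 2.34-fold lower (1.39 to 4.07). ID1, an inhibitor of differentiation and a BMP target, was at 294 RPM (248 to 346) after oil, 112 RPM (85.0 to 145) after tributyltin and 412 RPM in untreated males, 2.62-fold lower (1.92 to 3.63). Its relative ID2 had a ratio of 1.80 in the opposite direction, from 138 to 248 RPM, with 239 in untreated males. No measured gene of WNT signalling, 9 in all, was past 2-fold, beside 14.9% in either direction over all measured genes. Of these 9 genes 8 had a ratio above 1, against 57.0% of all measured genes. The WNT list summed to 1817 RPM after oil, 2204 after tributyltin and 2224 in untreated males.

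Of 5 measured genes of the insulin-like growth factor list 1 was past 2-fold higher and 1 lower, beside 8.39% and 6.55% of all measured genes. IGFBP7, a secreted binding protein of insulin-like growth factors and activin, was at 42.6 RPM (26.4 to 65.2) after oil, 118 RPM (90.1 to 152) after tributyltin and 37.9 in untreated males, 2.77-fold higher (1.66 to 4.79). IGF2BP2, an RNA-binding protein of growing tissue, was at 42.6, 19.7 and 50.7 RPM, 2.17-fold lower with an interval that includes 1 (0.976 to 5.15). IGFBP5, another binding protein of insulin-like growth factors, was at 384, 262 and 428 RPM in the same order, a ratio of 0.682 (0.542 to 0.856). Of 18 measured redox and metal response genes 1 was past 2-fold higher and none lower, beside 8.39% and 6.55% of all measured genes. This was NQO2, a quinone reductase, at 28.4 RPM after oil, 66.9 after tributyltin and 41.5 in untreated males. The metallothionein MT4, a metal-binding protein, was at 477, 425 and 712 RPM. HMOX1, haem oxygenase, had 2 tags in each column and 17.4 RPM in untreated males. Of 23 heat shock and unfolded protein genes 2 were higher and 1 lower, again near or below those shares. HSF2, a heat shock factor, was at 71.0 RPM after oil, 149.6 after tributyltin and 98.3 in untreated males, and its log2 ratio of 1.07 was 0.990 to 0.998 under the 3 other scalings, below 2-fold. DNAJC3, a chaperone of the endoplasmic reticulum, was at 30.4, 64.9 and 85.0 RPM. HSPB1, a small heat shock protein, was at 122, 51.2 and 184 RPM in oil, tributyltin and untreated males, 2.38-fold lower (1.48 to 3.93). In the list of xenobiotic handling EPHX2, an epoxide hydrolase, was clearly lower, at 112 RPM (84.1 to 145) after oil, 29.5 RPM (16.5 to 48.7) after tributyltin and 43.0 in untreated males, 3.78-fold lower (2.11 to 7.21). CYP1A4, a dioxin-inducible enzyme of birds, had 1 tag in each column and 0.512 RPM in untreated males. Of the 5 measured genes of apoptosis and the p53 response none was past 2-fold, beside 14.9% in either direction over all measured genes.

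Markers of other cell types were compared because gonads at this age lie beside the mesonephros and adrenal. None of the mesonephros and kidney markers was measured. They summed to 46.7 RPM (29.6 to 70.1) after oil, 72.8 RPM (51.3 to 100.4) after tributyltin and 191 RPM in untreated males, with 10 of 22 tagged and PAX2, SLC12A1 and SLC34A1 at 0 in both. Adrenal medulla markers summed to 323 RPM (275 to 377) after oil, 287 RPM (243 to 338) after tributyltin and 790 RPM in untreated males. Of these markers 9 of 19 were tagged, with TH, DBH and PNMT at 0 in the oil and tributyltin columns. Red blood cell markers, 11 of 16 tagged, summed to 4064 RPM (3888 to 4246) after oil and 4816 RPM (4627 to 5011) after tributyltin. The haemoglobin gene HBB was at 1567 and 2427 RPM, with 1048 in untreated males. Of the 5 measured red cell genes none was past 2-fold, beside 14.9% in either direction over all measured genes. Among them 2 had a ratio above 1 and 3 below 1. HBAA was at 1443 and 1388 RPM and HBAD at 875 and 834 RPM, with 1294 and 497 in untreated males. Leukocyte markers, 24 of 33 tagged, summed to 430 RPM (374 to 492) and 500 RPM (440 to 565). Of the 4 measured leukocyte genes CD69 was past 2-fold higher and none lower, beside 8.39% and 6.55% over all measured genes. LY86, an antigen of B cells and macrophages, was at 148 and 134 RPM, with 97.2 in untreated males. CXCR4, a chemokine receptor, stayed below the minimum with 36.5, 1.97 and 2.05 RPM in oil, tributyltin and untreated males, and its ligand CXCL12 was at 44.7, 88.6 and 71.1 RPM. Also below the minimum, and named after their values were seen, were IL2RG, MPEG1 and CD74. In that order of columns IL2RG was at 38.6, 5.90 and 10.7 RPM (ratio 0.153, 0.0290 to 0.520). MPEG1 was at 28.4, 3.94 and 11.8 RPM (ratio 0.139, 0.0153 to 0.603). CD74 went the other way, at 0, 11.8 and 0.512 RPM, with a lower counting bound of 1.14. The part of these cell types in the differences above was not tested. Of 7 measured muscle genes 1 was past 2-fold lower and none higher, beside 6.55% and 8.39% over all measured genes. This was MYL9, a myosin light chain, 2.08-fold lower (1.46 to 3.01), from 197 to 94.5 RPM with 157 RPM in untreated males. In this list 5 genes had a ratio below 1 and 2 above 1, among them MYH11 at 118, 163 and 153 RPM in oil, tributyltin and untreated males. The glial list had 2 measured genes. NGFR, a neurotrophin receptor also found on stromal cells, was 2.60-fold lower (1.89 to 3.61), from 286 to 110 RPM with 312 RPM in untreated males. PMP22 was at 479, 525 and 561 RPM in oil, tributyltin and untreated males. Of 4 measured endothelial genes 1 was past 2-fold higher and none lower, beside 8.39% and 6.55% over all measured genes. In this list 2 had a ratio above 1 and 2 below 1. PLVAP, of fenestrated vessels, was 2.79-fold higher (1.20 to 7.21), from 16.2 to 45.3 RPM with 1.02 RPM in untreated males. EMCN was at 156, 96.4 and 129 RPM in oil, tributyltin and untreated males, a ratio of 0.617 (0.422 to 0.894). The list summed to 341 RPM after oil, 301 after tributyltin and 447 in untreated males.

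Ratios differed between chromosomes. The median log2 ratio was 0.35 over 209 measured Z genes and 0.11 over 3497 autosomal genes. On the Z, 28 genes were past 2-fold higher and 6 lower, that is 13.4% and 2.87%, beside 8.15% and 6.43% on autosomes. Of the 209 Z genes 6 were clearly higher and 1 clearly lower, beside 31 and 31 of the 3497 autosomal genes. The clearly higher Z genes were NFIB, TMED7, FYB, SLC27A6, ADAMTS19 and HDHD2. Among autosomes the large chromosomes 1 to 5 had a median of 0.19, chromosomes 6 to 10 one of 0.10, and the microchromosomes 11 to 28 one of -0.03. Lower genes made up 4.87% of the measured genes on chromosomes 1 to 5 and 8.40% on the microchromosomes. Chromosome 25 was lowest, with a median of -0.59 over 34 genes and 11 of them past 2-fold lower, among them MRPS21, a mitochondrial ribosomal protein, from 311 to 144 RPM, with 207 in untreated males. No test was made of these differences.

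**Figure D5:**
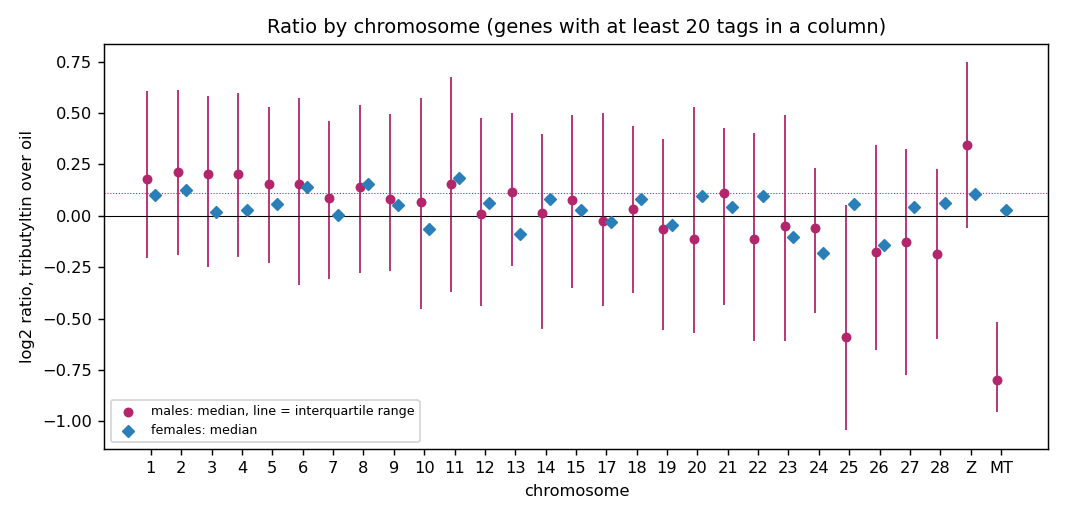
Median log2 ratio of tributyltin over oil (y axis) by chromosome (x axis) for genes with at least 20 tags in a column, for each autosome with 20 measured genes or more, the Z and the mitochondrial genome; circles are males with the interquartile range as a line, diamonds are female medians, and the dotted line is the male median over all genes, 0.11. Male autosomal medians range from 0.21 on chromosome 2 to -0.59 on chromosome 25, with the Z at 0.35 and the mitochondrial genome at -0.80.

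The chromosome plot shows wide interquartile ranges that all overlap 0 except that of the mitochondrial genome. The female medians lie closer together, at 0.07 on chromosomes 1 to 5, 0.02 on the microchromosomes, 0.11 on the Z and 0.03 on the mitochondrial genome. The classes of chromosomes were chosen after these medians were seen.

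The female columns of the same labels share no library with the males and were set beside the male values. Of the 38 clearly higher male genes 27 were measured in females, where 5 were past 2-fold higher and none lower; over all 3271 genes measured in females the shares were 7.21% and 4.71%. Of the 36 clearly lower male genes 14 were measured in females, where 1 was past 2-fold higher and none lower. Over all 2977 genes measured in both sexes, 6.08% were higher and 3.76% lower in females. Across these genes the log2 ratios of the sexes had a Pearson correlation of 0.0769 and a Spearman correlation of 0.0691, given as a description, since genes are not independent replicates. PDK4 was higher in females too, at 22.2 RPM after oil and 123 after tributyltin (ratio 5.55, 2.50 to 14.5), as was GAL10 at 1182 and 3940 RPM (ratio 3.33, 2.98 to 3.74). Untreated females had 259 RPM of PDK4 and 6816 RPM of GAL10, above both columns, so oil was the lowest column for both genes. IGFBP7 had 1 tag in oil females and 64 after tributyltin, 3.18 and 165 RPM, with 123 RPM in untreated females, nearer to tributyltin. NFIB was already at 934 RPM in oil females and 1476 after tributyltin (ratio 1.58, 1.37 to 1.83), while untreated females had 138 RPM. LARP1B went the other way in females, from 50.8 to 20.6 RPM (ratio 0.405, 0.150 to 1.003), and CXCR7 from 19.1 to 2.57 RPM, both with few tags. STAR was at 133 and 48.9 RPM in females (ratio 0.366, 0.201 to 0.644), where males had 44.7 and 45.3 RPM. With 1 column per sex and label, no difference between the sexes was tested.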

How the data were processed

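The authors deposited tags per gene as RPM (named tpm in the table) in 8 columns, with 0.05 in place of no tag. The submitters' processing notes name Novoalign and galGal4; versions, the way tags were counted per gene and the joining of right and left gonads are not given in the sources used here. With the filler set to 0, 100% of the values lay within 0.1 of a whole tag (largest distance 0.0795 over all 8 columns), which gave the tag totals. No count model was run on 1 column a side. Poisson and conditional binomial (Clopper-Pearson) intervals at 95% were computed with Python 3.11.15 and SciPy 1.17.1, and checked on simulated tags. Genes below 20 tags in both columns were left out of counts (the tags of measured genes were 94.9% and 94.5% of the oil and tributyltin totals). Named genes were the 15 largest rises and 15 largest falls by the bound of the interval nearest 1, up to 4 members past 2-fold per direction of each of 34 lists, and a fixed set. Members and lists were chosen with earlier results of these data known. No list was tested. Symbols are those of the table, and 11505 of 12330 were found in the RefSeq gene table; 1744 genes had no symbol. RPS19BP1 and RPL7L1, whose symbols only resemble ribosomal proteins, were taken out of that list. Only chromosomes, not positions, are in the table. Alternatives covered scaling, tag minimum, fold, interval level and an added 0.5 tag. The values of some list members are not reported here.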

Additional observations from a re-analysis of the deposited data

Results flagged for a closer look

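ZRSR2, a factor of the minor spliceosome, moved in opposite directions in the sexes. In males it was lower after tributyltin, with a log2 ratio of -3.04, from 48.7 RPM (31.2 to 72.5) after oil to 5.90 RPM (1.22 to 17.3), and untreated males had 26.6 RPM. In females the oil column held no tag of it and the tributyltin column 51.4 RPM, 5.40-fold higher against the floor of 3 tags, with 14.3 RPM in untreated females. Each value is 1 column of few tags, and the difference between the sexes was not tested.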

How the results depend on the processing

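No paired analysis was possible because right and left gonads are joined in 1 column, and for the same reason no replicate could be left out. Against the main counts of 319 higher and 249 lower genes past 2-fold, of which 38 and 36 clearly, a minimum of 10 tags gave 592 and 490, with 66 clearly lower. A minimum of 50 tags gave 107 and 74, with 23 and 14 clearly so. A mean of at least 20 tags over both columns gave 155 lower genes, 21 of them clearly. A 3-fold limit gave 94 and 77, with 12 and 8 clearly so, and a 99% interval 21 clearly higher genes. These alternatives change which genes are counted by construction. The other scalings lowered all log2 ratios by 0.08, and the counts under them stayed within 1.5 times, as did those with 0.5 tag added or restricted to genes tagged in untreated males. Of 78 named measured genes no called one changed direction, but HSF2 and FBLN1 were no longer past 2-fold under the 3 scalings, nor FBLN1 with 0.5 tag added. Under the scalings, in counts examined after the data were seen, ETV5, TOP2A, LAMC1, GAL1, MT-ATP8 and ND6 became past 2-fold lower among list members. CYP17A1, which was not past 2-fold, went from 0.03 to -0.05, -0.06 and -0.06 on the log2 scale under the 3 scalings, and the median of the matrix list from 0.01 to -0.07. By chromosome class, examined after the data were seen, the Z median was 0.26 to 0.43, that of chromosomes 1 to 5 0.11 to 0.21, that of the microchromosomes -0.11 to -0.03 and that of the mitochondrial genome -0.88 to -0.71. Depth limits genes under about 40 RPM, where 20 tags are not reached.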
